A study of Rattus norvegicus with 6 samples.

Results

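The genes described here are those of glycolysis, the pentose phosphate pathway and the response to low oxygen, a list of 37 chosen by name, of which 36 were found among the 16876 genes of the count table. The oxygen sensor gene Egln1 was not analysed here. Transcripts had been counted in 6 libraries of rat cells (Rattus norvegicus) in primary culture, shaken off mixed co-cultures and labelled microglia, the resident macrophages of the brain. In 3 libraries the cells had spent 24 h with PSNPs, polystyrene nanoplastics, and in the other 3 they had spent 24 h with IR-813, a near-infrared dye. The sample titles say IR-813 for these libraries while the columns of their files are named con with a number, so whether they are dye-treated or a control of another kind is not settled, and they are called by their titles here. The labels give no strain, age or dose and name no untreated group. Each fold below therefore sets PSNPs over IR-813, and which of these treatments moved a gene cannot be told apart. The labels do not say whether replicates are separate animals or cultures, and p-values then measure only the spread between these libraries, which may be technical.

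Total counts lay between 19166605 and 22553507 per library, and levels are given as CPM, counts scaled to the TMM-adjusted library total. PSNPs replicate 3 stood apart from PSNPs replicates 1 and 2, with a correlation of log CPM across genes of 0.974 and 0.971 with them, against 0.995 between those 2. The libraries were labelled microglia, but by the deposited log2 values, whose scaling between genes is not stated, the astrocyte gene Gfap ranked between 57 and 100 and the myelin gene Mbp between 70 and 128 among all genes, whereas the microglia genes Aif1 and Cx3cr1 ranked between 762 and 3398 and between 2635 and 7070. The levels below are those of all cells in each culture, in which fewer cells of a type and less RNA per cell cannot be told apart.

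Glycolysis converts glucose to pyruvate. Transporters bring glucose in, hexokinase traps it as glucose 6-phosphate, phosphofructokinase commits it to the pathway, and the later enzymes recover ATP and NADH before lactate dehydrogenase turns pyruvate into lactate for export. The pentose phosphate pathway branches off at glucose 6-phosphate, makes NADPH and ribose, and returns sugars to glycolysis through transketolase and transaldolase. Hypoxia-inducible factors are transcription factors whose alpha subunits are marked for destruction by the EGLN prolyl hydroxylases when oxygen is present. Many genes of glucose uptake, glycolysis and lactate export are known targets of these factors, and macrophages and microglia are known to raise glycolysis when activated by inflammatory stimuli.

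Most enzymes of lower glycolysis, lactate production and the pentose phosphate pathway were higher with PSNPs, while the main glucose transporter gene Slc2a1, the inducible hexokinase gene Hk2 and the hypoxia factor gene Hif1a were lower. In the quasi-likelihood test of edgeR, with Benjamini-Hochberg adjustment over all genes tested, 19 of the 36 members were higher and 3 were lower, and 14 did not pass at an adjusted p of 0.05. Across all 11679 genes tested, 20.9% were called higher and 20.1% lower, 41.0% in all, against 52.8% and 8.33% of the members. The list was drawn up with earlier results of these data known, so this contrast is a description and not a test. The median log2 fold change was 0.46 over the members and −0.012 over all genes tested. All 36 members passed the filter on low counts. Members had a median of 157 CPM, and all genes tested one of 33.2 CPM. Among the 8716 genes with a mean of at least 10 CPM the called shares were 20.1% higher and 18.3% lower, and 16 of the 32 members at that level were higher and 3 lower.

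Among the members, only Egln3, Taldo1 and Slc16a3 rose and only Hk2 fell more than 2-fold, which is 18.2% of the called members against 32.9% of all called genes. The 2 groups of libraries did not overlap for 27 of the 36 members, where this held for 61.4% of all genes tested. Without PSNPs replicate 3 there were 20 members higher and 5 lower, against 30.4% and 29.5% of all genes tested then. Leaving out IR-813 replicate 2 left 12 members higher and 2 lower, and leaving out IR-813 replicate 1 left 13 and 2. Over all genes tested, the same omissions left 1339 higher and 1473 lower, and 1416 and 1571. With scaling by library size only, 1943 genes were higher and 2852 lower, against 2439 and 2351 with TMM, and 18 members were higher and 5 lower.

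**Figure D1:**
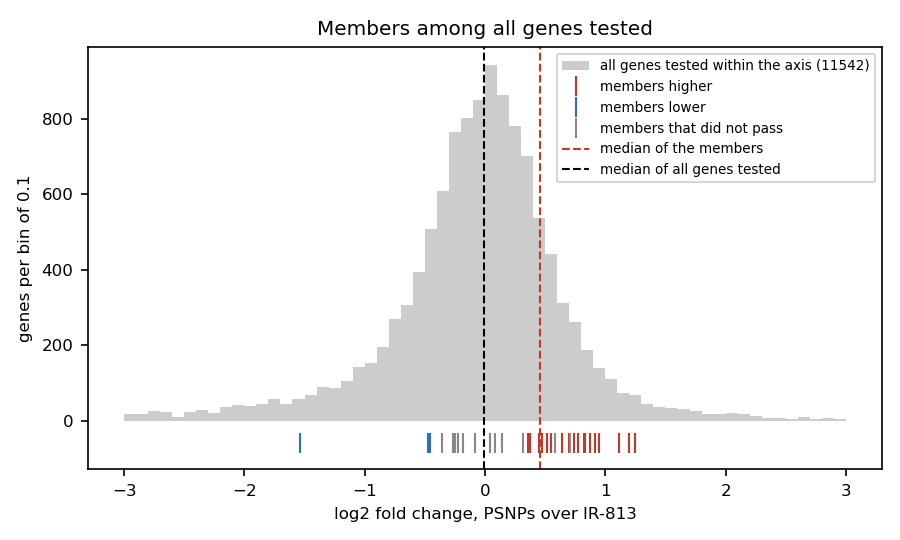
Log2 fold change of PSNPs over IR-813 on the x axis. Grey bars count all genes tested per bin of 0.1 on the y axis (11542 genes within the axis, 137 outside it), ticks below 0 mark the 36 members by call, and dashed lines mark the 2 medians. The median of the members lies at 0.46, right of the −0.012 of all genes, and Hk2 lies alone on the left.

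**Figure D2:**
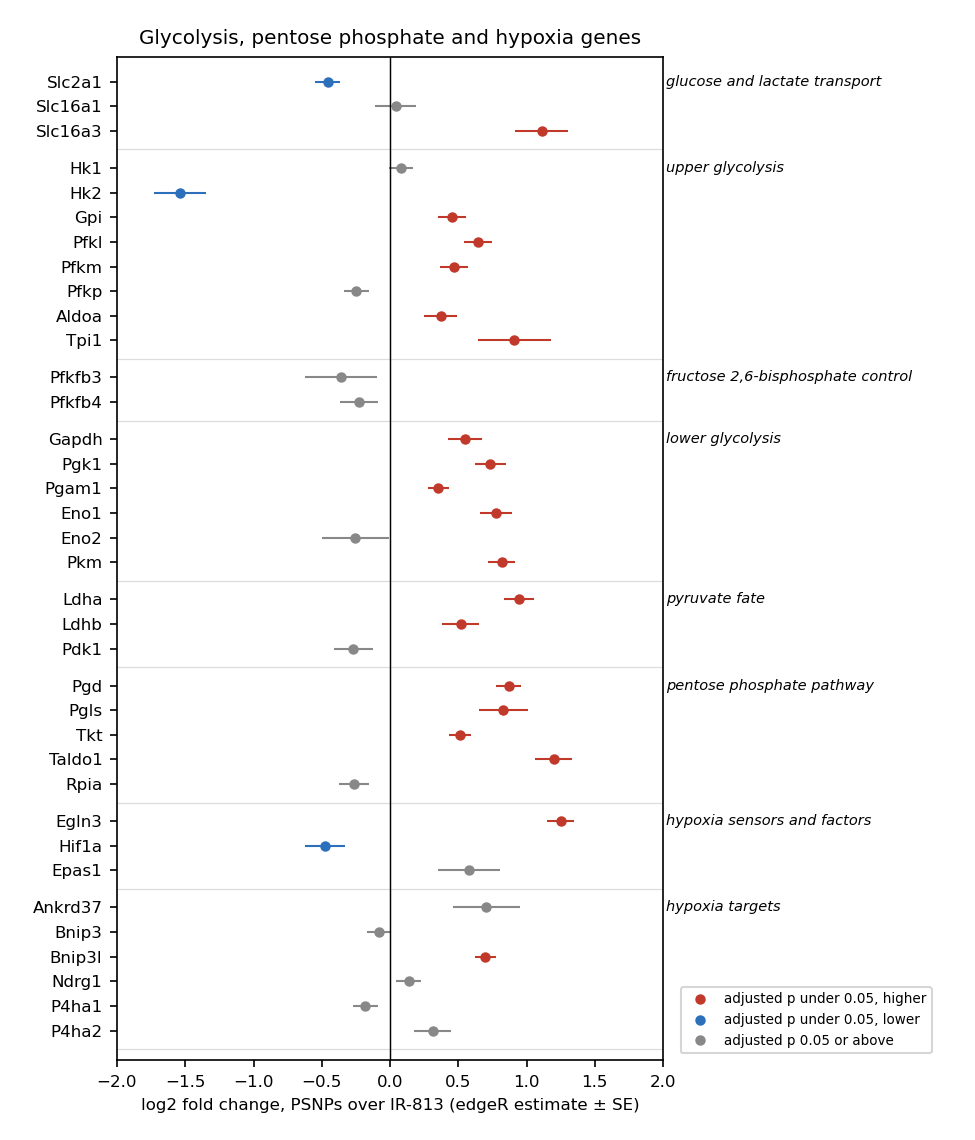
Log2 fold change of each member, PSNPs over IR-813, as estimate and standard error from 6 libraries, grouped by role. Red marks the 19 members called higher, blue the 3 called lower and grey the 14 that did not pass.

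Hypoxia-inducible factors are known to bind short core letters in the promoters of many of these genes, ACGTG or GCGTG. The 250 bases before the RefSeq start (build GRCr8, while the counts were made on mRatBN7.2) were found by symbol for 33 of the 37 listed genes, Egln1 among them. They are printed for the member with the largest rise (Egln3), the lactate gene (Ldha) and the member with the largest fall (Hk2). The others are the glucose transporter gene that was lower (Slc2a1) and a classical hypoxia target that did not pass (Bnip3). Capitals mark ACGTG and GCGTG on either strand, so that CACGT and CACGC are the same cores read on the other strand, and CACGTG holds ACGTG on both.
Egln3, chr6:77411016-77411265, minus strand: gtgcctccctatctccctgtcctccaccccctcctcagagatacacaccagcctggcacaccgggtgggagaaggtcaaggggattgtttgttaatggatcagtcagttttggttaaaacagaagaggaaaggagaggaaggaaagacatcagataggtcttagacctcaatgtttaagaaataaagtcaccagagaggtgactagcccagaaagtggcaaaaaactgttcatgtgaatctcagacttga
Ldha, chr1:106507842-106508091, plus strand: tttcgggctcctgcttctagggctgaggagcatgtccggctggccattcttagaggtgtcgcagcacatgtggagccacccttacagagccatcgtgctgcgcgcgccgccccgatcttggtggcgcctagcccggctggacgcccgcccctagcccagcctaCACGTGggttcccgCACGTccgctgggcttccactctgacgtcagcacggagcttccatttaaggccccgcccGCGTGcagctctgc
Hk2, chr4:116841276-116841525, minus strand: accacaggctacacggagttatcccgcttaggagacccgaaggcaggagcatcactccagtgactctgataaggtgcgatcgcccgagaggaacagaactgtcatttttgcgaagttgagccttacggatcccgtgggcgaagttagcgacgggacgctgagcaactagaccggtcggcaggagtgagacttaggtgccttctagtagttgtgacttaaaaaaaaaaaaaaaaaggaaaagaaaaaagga
Slc2a1, chr5:138002272-138002521, plus strand: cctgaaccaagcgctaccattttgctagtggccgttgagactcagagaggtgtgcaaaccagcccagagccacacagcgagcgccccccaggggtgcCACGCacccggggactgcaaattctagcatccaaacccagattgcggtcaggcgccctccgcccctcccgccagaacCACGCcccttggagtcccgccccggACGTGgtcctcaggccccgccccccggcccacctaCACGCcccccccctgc
Bnip3, chr1:203154963-203155212, minus strand: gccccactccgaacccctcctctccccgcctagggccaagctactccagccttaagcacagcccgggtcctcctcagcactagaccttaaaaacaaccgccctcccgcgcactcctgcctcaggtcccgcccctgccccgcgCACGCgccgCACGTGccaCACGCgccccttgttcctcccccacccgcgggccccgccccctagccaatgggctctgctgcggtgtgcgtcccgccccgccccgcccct

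The printed windows do not sort by direction of change. Egln3, which rose, and Hk2, which fell, held neither core. Ldha, which rose, held 3 matches to ACGTG, 2 of them within 1 CACGTG, and 1 to GCGTG, and Slc2a1, which fell, held 1 and 3. Bnip3, which did not pass, held 2 and 2. Among all members with a window, ACGTG on either strand was found for 5 of the 16 that were higher, 2 of the 3 that were lower and 7 of the 13 that did not pass. In all, 14 of 33 genes (42.4%) held it, beside 22.7% of the 8867 tested genes with a window. GCGTG was found for 16 of 33 (48.5%), beside 45.6%. Over all 33469 windows of this length in the table, ACGTG was in 16.6% and GCGTG in 25.9%. A match is a description of letters and not a site, and a missing match says only that the letters are not in this window.

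The 3 transport genes each behaved differently. Slc2a1, which encodes the glucose transporter GLUT1, stood at 204, 187 and 169 CPM in the IR-813 libraries, and 133, 140.3 and 135 CPM in the PSNPs libraries. All 3 PSNPs libraries lay below all 3 IR-813 libraries, and the fall was 1.37-fold, with a log2 fold change of −0.46 ± 0.090 (estimate ± SE) and an edgeR adjusted p of 0.00731. Slc16a3 encodes the lactate exporter MCT4. It was scarce, with 27, 32 and 27 counts in the IR-813 libraries and 58, 48 and 64 in the PSNPs libraries, and rose by 1.11 ± 0.19 on the log2 scale (edgeR adjusted p 0.0044). Slc16a1 encodes MCT1, a carrier for lactate in either direction, and did not pass. It stood at 170.0, 171 and 172 CPM in the IR-813 libraries, and 212, 177 and 139 CPM in the PSNPs libraries, so that the IR-813 libraries lay inside the wider range of the PSNPs libraries. Its log2 difference was 0.042 ± 0.15 (edgeR adjusted p 0.839), and it was −0.11 without PSNPs replicate 1 and −0.034 with scaling by library size only.

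Upper glycolysis, with 75.0% of its 8 genes called beside 41.0% of all genes tested, began with the largest fall of the list. Hk2, the inducible hexokinase that can bind mitochondria, stood at 93.6, 86.4 and 73.9 CPM in the IR-813 libraries, and 36.9, 27.9 and 22.7 CPM in the PSNPs libraries. The gene, whose promoter window is printed above and holds neither core, was lower in every PSNPs library than in any IR-813 library, and the fall was 2.90-fold, or −1.54 ± 0.19 on the log2 scale (edgeR adjusted p 0.00117). Hk1, the constitutive brain hexokinase, was at 306 ± 19.8 CPM (IR-813) and 324 ± 19.1 CPM (PSNPs) (SD, n = 3 each), with overlapping groups, and did not pass (edgeR adjusted p 0.473).

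After the hexokinase step, 5 of the 6 remaining genes of upper glycolysis rose. Leaving out IR-813 replicate 1 or 2 left 1 of these 5, Pfkl, and leaving out PSNPs replicate 1 or 2 left 3. Gpi, which turns glucose 6-phosphate into fructose 6-phosphate, stood at 345, 358 and 382 CPM in the IR-813 libraries, and 464, 461 and 560.1 CPM in the PSNPs libraries. Its groups did not overlap, and it rose by 0.45 ± 0.10 (edgeR adjusted p 0.0129), but its adjusted p was 0.0615 and 0.0622 on leaving out IR-813 replicates 1 and 2 (0.00106 to 0.0622 over the alternatives). Phosphofructokinase, the committed step, has 3 subunit genes, of which 2 rose. The liver-type subunit gene Pfkl rose from 100.4 ± 11.3 to 157 ± 7.19 CPM (SD, n = 3 each), with an edgeR adjusted p of 0.00308. The muscle-type gene Pfkm rose by 0.47 ± 0.10 (edgeR adjusted p 0.0108), with an adjusted p of 0.0507 and 0.0591 on leaving out IR-813 replicates 1 and 2 (0.00164 to 0.0591 over the alternatives). The platelet-type gene Pfkp stood at 80.2, 81.0 and 73.1 CPM in the IR-813 libraries, and 62.4, 71.5 and 63.4 CPM in the PSNPs libraries, all PSNPs libraries being lower, but did not pass (edgeR adjusted p 0.0697). Its adjusted p was 0.0379 without PSNPs replicate 3 and 0.0322 with scaling by library size only, and ran from 0.0322 to 0.233 over the alternatives.

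Aldoa, the aldolase that splits the 6-carbon sugar, was close to the threshold. It stood at 1302, 1289 and 1240.5 CPM in the IR-813 libraries, and 1516, 1502 and 1933 CPM in the PSNPs libraries, with PSNPs replicate 3 well above the others. Its log2 fold change of 0.37 ± 0.12 had an edgeR adjusted p of 0.048, which rose above 0.05 in 10 of 13 alternatives. Among them it was 0.125, 0.141 and 0.128 on leaving out IR-813 replicates 1, 2 and 3, and 0.0627 and 0.0519 on leaving out PSNPs replicates 1 and 2 (0.00347 to 0.141 over the alternatives). Tpi1, which interconverts the triose phosphates, rests on few counts. It had 22, 15 and 31 counts in the IR-813 libraries and 42, 38 and 37 in the PSNPs libraries, and a log2 fold change of 0.91 ± 0.27 (edgeR adjusted p 0.0314). That call was lost with a replicate block (adjusted p 0.054), and the adjusted p was 0.106 and 0.0984 on leaving out IR-813 replicates 1 and 2, and 0.0714 and 0.0684 on leaving out PSNPs replicates 1 and 2 (0.016 to 0.106 over the alternatives). Glycolytic enzyme genes, among them Gapdh, Tpi1, Pgam1, Eno1 and Ldha, are known to have near-identical processed copies in rodent genomes, and their counts are uncertain because how shared reads were handled is not given in the sources.

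The 2 genes that set the level of fructose 2,6-bisphosphate, the activator of phosphofructokinase, did not pass. Pfkfb3, the isoform known for driving glycolysis in activated cells, stood at 262, 259 and 223 CPM in the IR-813 libraries, and 242, 226 and 114 CPM in the PSNPs libraries. PSNPs replicates 1 and 2 lay within the range of the IR-813 libraries, and PSNPs replicate 3 alone was far below it. The log2 difference was −0.36 ± 0.26 with all libraries (edgeR adjusted p 0.308) and −0.086 without PSNPs replicate 3. Pfkfb4, a further isoform, was at 11.4 ± 0.868 CPM (IR-813) and 9.78 ± 1.21 CPM (PSNPs) (SD, n = 3 each), with overlapping groups (edgeR adjusted p 0.225).

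**Figure D3:**
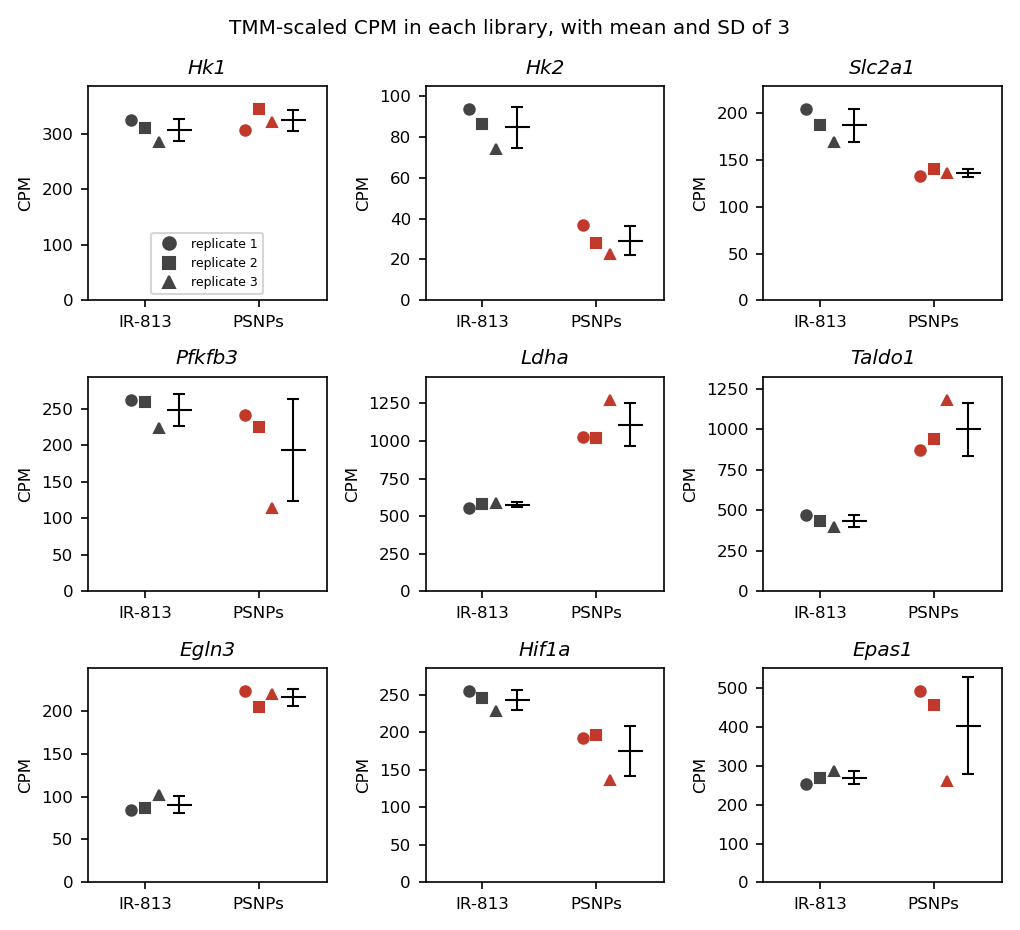
TMM-scaled CPM of 9 members in each library on linear axes from 0, with circles, squares and triangles for replicates 1, 2 and 3, and the mean and SD of 3 libraries beside them. Hk2 and Slc2a1 are lower and Ldha, Taldo1 and Egln3 higher in all 3 PSNPs libraries, while PSNPs replicate 3 lies apart from replicates 1 and 2 for Pfkfb3, Hif1a and Epas1.

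In lower glycolysis 5 of 6 genes rose, and the sixth, Eno2, had few counts. The share called was 83.3%, beside 41.0% of all genes tested. Leaving out IR-813 replicate 2 left 3 of the 5 rises, and leaving out IR-813 replicate 1 left 4. Gapdh, which makes NADH at the first step of the payoff phase, stood at 2411, 2366 and 2392 CPM in the IR-813 libraries, and 3248, 3184 and 4051 CPM in the PSNPs libraries. Its groups were separate, but PSNPs replicate 3 exceeded the other PSNPs libraries, and the rise was 0.55 ± 0.13 on the log2 scale (edgeR adjusted p 0.013). Its adjusted p was 0.0552 and 0.0649 on leaving out IR-813 replicates 1 and 2 (0.000229 to 0.0649 over the alternatives). Pgk1, which makes the first ATP of this phase, rose by 0.74 ± 0.11 (edgeR adjusted p 0.00273). Pgam1, the phosphoglycerate mutase, had the smallest rise among the called members, from 382 ± 9.39 to 488 ± 28.1 CPM (SD, n = 3 each). Its edgeR adjusted p was 0.0112, and it was 0.0672 on leaving out IR-813 replicate 2 (0.000797 to 0.0672 over the alternatives).

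Eno1, the ubiquitous enolase, stood at 1169, 1149 and 1126 CPM in the IR-813 libraries, and 1842, 1794 and 2264 CPM in the PSNPs libraries. This rise was 1.71-fold (edgeR adjusted p 0.00251). Pkm, pyruvate kinase, stood at 1027, 1000.0 and 962 CPM in the IR-813 libraries, and 1721, 1629.9 and 1923 CPM in the PSNPs libraries. All 3 PSNPs libraries lay above the IR-813 libraries, with PSNPs replicate 3 highest. Its log2 fold change was 0.82 ± 0.10 (edgeR adjusted p 0.00108), and the counts per gene do not separate its M1 and M2 splice forms. Eno2, the enolase of neurons, had 15, 18 and 14 counts in the IR-813 libraries and 14, 12 and 10 in the PSNPs libraries and did not pass (edgeR adjusted p 0.524). Levels were also summed over the 14 enzyme genes from Hk1 to Pkm. The sums were 7717, 7594 and 7493 CPM in the IR-813 libraries, and 10538, 10349 and 12679 CPM in the PSNPs libraries. They made up between 0.775% and 0.787% of all counts with IR-813 and between 1.02% and 1.24% with PSNPs. The sum mainly follows Gapdh, Aldoa, Eno1 and Pkm, at means of 2390, 1277, 1148 and 997 CPM with IR-813. Hk2, which fell, weighs little in it, at a mean of 84.6 CPM with IR-813.

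At the fate of pyruvate, both lactate dehydrogenase genes rose. Ldha encodes the subunit that favours lactate formation. It stood at 556, 581 and 589 CPM in the IR-813 libraries, and 1029, 1023 and 1273 CPM in the PSNPs libraries. The lowest PSNPs library was well above the highest IR-813 library, and the rise was 1.93-fold, or 0.95 ± 0.11 on the log2 scale (edgeR adjusted p 0.000947). Ldhb, the subunit of oxidative tissues, stood at 130.1, 130.4 and 152 CPM in the IR-813 libraries, and 175, 181 and 236 CPM in the PSNPs libraries and rose by 0.52 ± 0.14 (edgeR adjusted p 0.0217). Its adjusted p was 0.0857 and 0.0891 on leaving out IR-813 replicates 1 and 2 (0.00431 to 0.0891 over the alternatives). Pdk1, a kinase that switches off pyruvate dehydrogenase and is a hypoxia target, was at 19.8 ± 3.02 CPM (IR-813) and 16.5 ± 1.31 CPM (PSNPs) (SD, n = 3 each), with overlapping groups, and did not pass (edgeR adjusted p 0.172).

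Of the 5 pentose phosphate genes, 4 rose. In the oxidative branch, Pgd, which makes the second NADPH, stood at 308, 309 and 316 CPM in the IR-813 libraries, and 528, 548 and 629 CPM in the PSNPs libraries. Replicates were tight in both groups, and the rise was 0.87 ± 0.090 on the log2 scale (edgeR adjusted p 0.000607). Pgls, the lactonase of this branch, stood at 82.4, 87.4 and 88.7 CPM in the IR-813 libraries, and 134, 125 and 201 CPM in the PSNPs libraries. It was higher in all PSNPs libraries and highest in PSNPs replicate 3, and its log2 fold change of 0.83 ± 0.18 (edgeR adjusted p 0.0106) was 0.59 without that library.

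The non-oxidative branch, which exchanges sugars with glycolysis, held the largest rise of the pathway. Taldo1, transaldolase, stood at 469.9, 436 and 399 CPM in the IR-813 libraries, and 874, 943 and 1182 CPM in the PSNPs libraries. It more than doubled, with a log2 fold change of 1.20 ± 0.14 (edgeR adjusted p 0.000816). Tkt, transketolase, stood at 726, 724 and 703 CPM in the IR-813 libraries, and 989, 1008 and 1077 CPM in the PSNPs libraries and rose by 0.51 ± 0.080 (edgeR adjusted p 0.00296). Rpia, which interconverts ribulose and ribose 5-phosphate, was at 40.4 ± 4.12 CPM (IR-813) and 33.7 ± 2.49 CPM (PSNPs) (SD, n = 3 each) and did not pass (edgeR adjusted p 0.101). Its adjusted p was 0.0177 without PSNPs replicate 3, on the lower side, and 0.045 with scaling by library size only, and ran from 0.0177 to 0.294 over the alternatives. Summed over the 5 genes, levels were 1630.0, 1599 and 1542 CPM in the IR-813 libraries, and 2557, 2657 and 3125 CPM in the PSNPs libraries, with no overlap between groups.

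**Figure D4:**
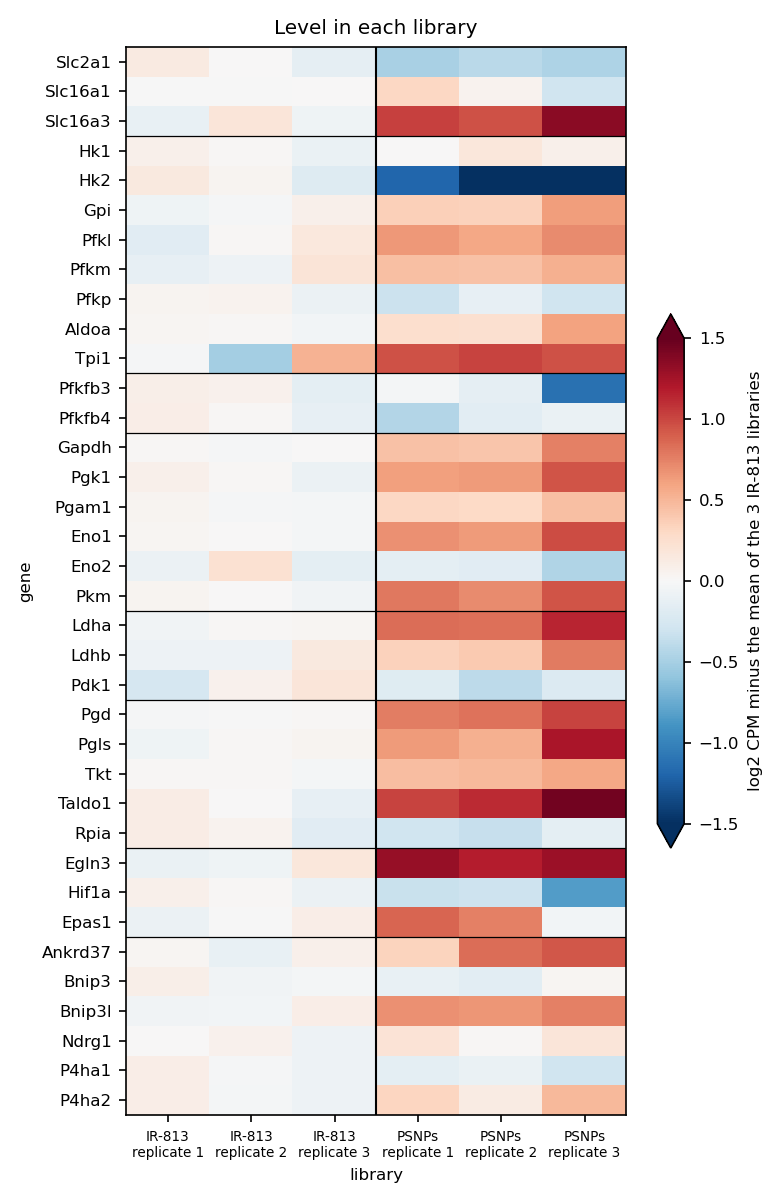
Log2 CPM of the 36 members in each library, minus the mean of the 3 IR-813 libraries for that gene, with horizontal lines between role groups. Colours saturate at 1.5 in either direction. The enzymes of lower glycolysis and the pentose phosphate pathway are mostly red in all 3 PSNPs libraries, and Hk2 is the darkest blue.

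The oxygen-sensing genes moved apart from one another. Egln3, a prolyl hydroxylase that is itself a hypoxia target, had the largest rise and the smallest adjusted p of all members. It stood at 83.9, 86.2 and 101 CPM in the IR-813 libraries, and 223, 204 and 219 CPM in the PSNPs libraries. The groups were far apart and tight, with a 2.38-fold rise, a log2 fold change of 1.25 ± 0.10 and an edgeR adjusted p of 0.000213. Hif1a encodes the alpha subunit of hypoxia-inducible factor 1. Its transcript stood at 255, 246 and 228 CPM in the IR-813 libraries, and 192, 196 and 136 CPM in the PSNPs libraries, with all PSNPs libraries lower and replicate 3 lowest. The log2 fold change of −0.47 ± 0.15 passed with an edgeR adjusted p of 0.0385, but this was 0.122, 0.113 and 0.074 on leaving out IR-813 replicates 1, 2 and 3, and 0.0529 on leaving out PSNPs replicate 1 (0.00244 to 0.122 over the alternatives). The level of this transcript does not give the level of the protein, which is set mainly by its breakdown.

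Epas1, which encodes the related factor HIF-2 alpha, showed the widest split among the PSNPs libraries after Pfkfb3. It stood at 253, 269 and 288 CPM in the IR-813 libraries, and 493, 457 and 261 CPM in the PSNPs libraries. PSNPs replicates 1 and 2 were far above the IR-813 libraries and PSNPs replicate 3 lay among them. The log2 difference was 0.58 ± 0.22 and did not pass (edgeR adjusted p 0.0771). Without PSNPs replicate 3 it was 0.82 (adjusted p 5.98e-05), and DESeq2 on all libraries gave an adjusted p of 0.0283 (range 5.98e-05 to 0.204 over the alternatives).

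The 6 hypoxia targets outside glycolysis showed 1 rise and no fall, 16.7% called beside 41.0% of all genes tested. Bnip3l, a mitochondrial receptor for mitophagy also called NIX, stood at 106, 106 and 118 CPM in the IR-813 libraries, and 177, 174 and 185 CPM in the PSNPs libraries. Its groups were separate and narrow, with a log2 fold change of 0.70 ± 0.079 (edgeR adjusted p 0.000823). The sequence-related Bnip3, another mitophagy receptor and a classical hypoxia target, stood at 92.9, 84.4 and 86.0 CPM in the IR-813 libraries, and 81.0, 78.9 and 89.5 CPM in the PSNPs libraries and did not pass (edgeR adjusted p 0.495). Ndrg1, a stress-responsive gene used as a marker of hypoxia, was at 52.7 ± 2.47 CPM (IR-813) and 58.0 ± 4.03 CPM (PSNPs) (SD, n = 3 each), with overlapping groups (edgeR adjusted p 0.263).

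P4ha1 and P4ha2 encode the catalytic subunits of collagen prolyl hydroxylase. P4ha1 was at 73.5 ± 4.72 CPM (IR-813) and 64.9 ± 4.58 CPM (PSNPs), all PSNPs libraries being lower, and P4ha2 at 11.4 ± 0.723 CPM (IR-813) and 14.2 ± 1.77 CPM (PSNPs), all PSNPs libraries being higher (SD, n = 3 each). Neither passed, with edgeR adjusted p of 0.164 and 0.0997. Ankrd37, an ankyrin repeat gene known as a direct HIF target, had 15, 13 and 15 counts in the IR-813 libraries and 18, 22 and 24 in the PSNPs libraries. Its log2 difference of 0.71 ± 0.25 did not pass by edgeR (adjusted p 0.0566), and the adjusted p was 0.0299 by limma on the deposited log2 values and 0.0399 without PSNPs replicate 1 (range 0.0299 to 0.194 over the alternatives).

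Pairs of related genes were compared within each library, as the log2 ratio of their counts, which does not depend on how libraries are scaled. The ratio of Hk2 to Hk1 was −1.79, −1.84 and −1.95 with IR-813 and −3.06, −3.63 and −3.83 with PSNPs, a difference of −1.64. All PSNPs libraries lay below all IR-813 libraries. The ratio of Epas1 to Hif1a was −0.0091, 0.13 and 0.34 with IR-813 and 1.36, 1.22 and 0.94 with PSNPs. Here PSNPs replicate 3, which stood apart for each gene alone, lay with the other PSNPs libraries, and the difference was 1.02.

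Bnip3 to Bnip3l gave −0.18, −0.33 and −0.45 with IR-813 and −1.12, −1.14 and −1.05 with PSNPs, a difference of −0.78. Ldha to Ldhb gave 2.10, 2.15 and 1.95 with IR-813 and 2.56, 2.50 and 2.43 with PSNPs, a difference of 0.43, with the ratio higher in all PSNPs libraries. Pfkp to Pfkl differed by −0.90 and Pfkm to Pfkl by −0.17. The difference was 0.49 for P4ha2 to P4ha1, 1.09 for Slc16a3 to Slc16a1 and −1.02 for Eno2 to Eno1. Slc16a3 had 27 to 64 counts per library and Eno2 10 to 18, so the ratios with these genes rest on few counts. In 9 of the 10 pairs the 2 groups did not overlap, with an exact 2-sided permutation p of 0.1, the smallest that 3 libraries against 3 allow, so none can reach 0.05. In the tenth, Pfkfb4 to Pfkfb3, they overlapped, with a difference of 0.20 and an exact 2-sided permutation p of 0.9. For single genes, the groups did not overlap for 61.4% of all genes tested, and no such share was computed for other pairs.

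**Figure D5:**
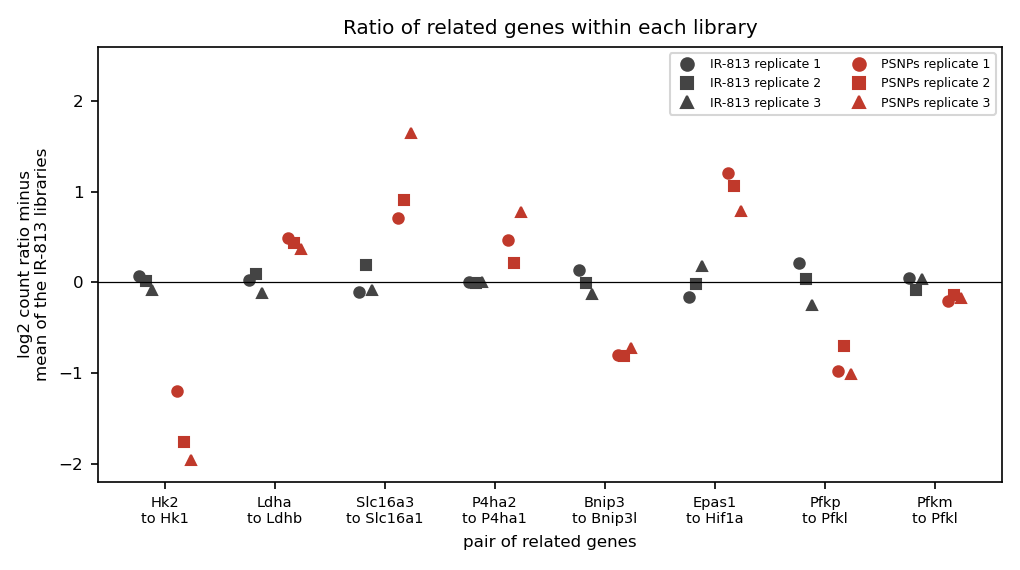
Log2 ratio of the counts of 2 related genes in each library, minus the mean of that ratio over the 3 IR-813 libraries, for 8 pairs, with 1 point per library. The PSNPs points (red) lie on 1 side of the IR-813 points (dark grey) in each pair shown, and farthest below for Hk2 to Hk1. Pfkfb4 to Pfkfb3, whose groups overlapped, and Eno2 to Eno1 are not drawn.

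Other genes of the same pathways, listed from textbook knowledge with earlier results of these data known, moved in both directions. Of 95 listed, 91 were in the table and 76 passed the filter, and 24 of these were higher and 9 lower, 43.4% called beside 41.0% of all genes. Leaving out IR-813 replicate 1, 2 or 3 gave 10, 9 or 14 higher and 5, 6 or 6 lower. Leaving out PSNPs replicate 1 or 2 gave 15 or 18 higher and 8 or 6 lower, and leaving out PSNPs replicate 3 gave 31 and 12. Of 7 further pentose phosphate genes, 3 rose and none fell, 42.9% called beside 41.0% of all genes tested. There was 1 rise left on leaving out any IR-813 library, 2 on leaving out PSNPs replicate 1 or 2, and 4 on leaving out PSNPs replicate 3. Among these 7 genes the ribokinase gene Rbks rose by 0.55 ± 0.15 on the log2 scale. Its edgeR adjusted p of 0.0251 was 0.085, 0.0874 and 0.0764 on leaving out IR-813 replicates 1, 2 and 3 (0.00336 to 0.0874 over the alternatives).

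Of 17 further genes of glucose uptake and glycolysis, 6 rose and 3 fell, 52.9% called beside 41.0% of all genes tested. The rises numbered 3 and the falls 1 on leaving out IR-813 replicate 2, and with IR-813 replicate 1 left out they numbered 4 and 0. The falls numbered 1 with IR-813 replicate 3 or PSNPs replicate 2 left out, and 2 with either other PSNPs library left out. Bsg encodes basigin, the partner that carries MCT1 and MCT4 to the cell surface, and it rose by 0.87 ± 0.13 (edgeR adjusted p 0.00272). The fructose 2,6-bisphosphate genes Pfkfb1 (1.10 ± 0.20) and Pfkfb2 (−0.92 ± 0.22) rose and fell, and the muscle mutase gene Pgam2 fell by 0.85 ± 0.28, with an edgeR adjusted p of 0.048. That of Pgam2 was 0.141, 0.107 and 0.105 on leaving out IR-813 replicates 1, 2 and 3, and 0.109 and 0.0615 on leaving out PSNPs replicates 2 and 3 (0.0179 to 0.141 over the alternatives), and that of Pfkfb2 0.0622 on leaving out IR-813 replicate 1 (0.000452 to 0.0622 over the alternatives). Of 14 genes that govern pyruvate entry into mitochondria, 4 rose and 1 fell, 35.7% called beside 41.0% of all genes tested. Leaving out IR-813 replicate 1, 2 or 3 left 1, 2 or 3 rises and no fall. Leaving out PSNPs replicate 1, 2 or 3 gave 1, 2 or 6 rises and 1, 0 or 1 falls. The pyruvate dehydrogenase kinase genes with the largest rises were Pdk4 at 1.25 ± 0.32 and Pdk2 at 0.74 ± 0.11. Pdhx, a structural part of the dehydrogenase complex, fell by 0.38 ± 0.11. The adjusted p of Pdk4 was 0.0205, and 0.0706 and 0.0758 on leaving out IR-813 replicates 1 and 3, and 0.0618 and 0.053 on leaving out PSNPs replicates 1 and 2 (0.000443 to 0.0758 over the alternatives). That of Pdhx was 0.0289, and 0.103, 0.106 and 0.0695 on leaving out IR-813 replicates 1, 2 and 3, and 0.0613 on leaving out PSNPs replicate 2 (0.00652 to 0.106 over the alternatives).

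Of 11 further oxygen-sensing genes, 2 rose and 1 fell, 27.3% called beside 41.0% of all genes tested. The rises numbered 0 on leaving out IR-813 replicate 1 or 2, and 1 on leaving out IR-813 replicate 3. With PSNPs replicate 3 left out there were 3 rises and 2 falls. Egln2, the third prolyl hydroxylase gene, rose by 0.40 ± 0.10 (edgeR adjusted p 0.0208). Tceb2, an elongin subunit of the ligase that destroys HIF alpha, rose by 0.55 ± 0.18, and Siah2, a ligase that targets prolyl hydroxylases, fell by 0.85 ± 0.12. The adjusted p of Egln2 was 0.088 and 0.0918 on leaving out IR-813 replicates 1 and 2 (0.00407 to 0.0918 over the alternatives), and that of Tceb2, at 0.0436 with all libraries, was 0.124, 0.127 and 0.105 on leaving out IR-813 replicates 1, 2 and 3 (0.000985 to 0.127 over the alternatives). Of 27 further hypoxia targets, 9 rose and 4 fell, 48.1% called beside 41.0% of all genes tested. Their median log2 fold change was 0.094. Leaving out IR-813 replicate 1, 2 or 3 gave 4, 3 or 3 rises and 4 falls each time, so that the rises no longer outnumbered the falls. Leaving out PSNPs replicate 1, 2 or 3 gave 5, 6 or 12 rises and 4, 4 or 7 falls. A replicate block gave 4 of each, and scaling by library size only gave 5 rises and 4 falls. Over all genes tested, leaving out IR-813 replicate 1, 2 or 3 gave 1416, 1339 or 1811 higher and 1571, 1473 or 1818 lower. With all libraries these counts were 2439 and 2351.

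The largest changes in that list went both ways. Vegfa, the angiogenic factor, stood at 195, 181 and 144 CPM in the IR-813 libraries, and 47.8, 53.4 and 51.0 CPM in the PSNPs libraries, a fall of 1.77 ± 0.13 on the log2 scale (edgeR adjusted p 0.000169). Stc2, a secreted glycoprotein gene that other stresses also induce, fell by 3.78 ± 0.24 (edgeR adjusted p 0.000116). Angptl4, a lipase inhibitor, rose from 42.7 ± 6.89 to 96.1 ± 18.6 CPM (SD, n = 3 each). Car9, a carbonic anhydrase used as a hypoxia marker, had 14, 26 and 14 counts in the IR-813 libraries and 74, 73 and 75 in the PSNPs libraries and rose by 2.16 ± 0.27 (edgeR adjusted p 0.00116).

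Markers of the cell types in the culture moved with the treatment. The called shares were 81.8% of microglia, 100.0% of oligodendrocyte-lineage, 77.8% of tested neuron and 60.0% of astrocyte markers, beside 41.0% of all genes tested. Of 11 microglia markers, 9 were lower and none higher, with a summed level of 999 to 1360.4 CPM in the IR-813 libraries and 573 to 758 CPM in the PSNPs libraries. Of 12 oligodendrocyte-lineage markers, 11 were lower and 1 higher (7259 to 8419 CPM in the IR-813 libraries and 4504 to 5215 CPM in the PSNPs libraries). Of 9 tested neuron markers, 7 were lower (385 to 399 CPM in the IR-813 libraries and 164 to 197 CPM in the PSNPs libraries). Of 10 astrocyte markers, 5 were higher and 1 lower, with 2 higher on leaving out IR-813 replicate 2 and 3 on leaving out IR-813 replicate 1 or PSNPs replicate 2, and their summed level overlapped between groups (7569 to 9784 CPM in the IR-813 libraries and 9523 to 10837 CPM in the PSNPs libraries). Summed levels were 74.1 to 126 CPM in the IR-813 libraries and 74.1 to 84.2 CPM in the PSNPs libraries for fibroblast, pericyte and endothelial markers, with Col1a2 at 0 in every library. The 7 markers of infiltrating myeloid and lymphoid cells summed to at most 0.159 CPM, with Cd3e, Cd3g, Ms4a1 and S100a9 at 0. Of 8 proliferation genes, 2 were higher and none lower, 25.0% called beside 41.0% of all genes tested. None was higher on leaving out IR-813 replicate 1 or 2 or with scaling by library size only. There was 1 higher on leaving out IR-813 replicate 3, PSNPs replicate 1 or PSNPs replicate 2. Over all such omissions, 7 to 10 microglia, 9 to 11 oligodendrocyte-lineage and 6 to 8 neuron markers were lower. The part of these shifts in the values of the glycolysis, pentose phosphate and hypoxia genes was not tested.

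The spread between replicates was described by the coefficient of variation, with no test. Its median was 11.4% over the members and 14.7% over all genes tested with PSNPs, and 6.38% and 5.93% with IR-813. PSNPs replicate 3 differed from the mean of replicates 1 and 2 by more than 0.5 on the log2 scale for 4 members, namely Pfkfb3, Pgls, Hif1a and Epas1, or 11.1%, and for 27.2% of all genes tested. Among the 19 members that were higher, PSNPs replicate 3 was the highest library for 17, and among all higher genes it was the highest for 66.6%.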

How the data were processed

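The authors deposited 1 table of read counts by gene symbol covering the 6 libraries, and for each library a file of log2 values with no stated scaling. Per the submitters' processing notes, bcl2fastq and the build mRatBN7.2 were used. Aligner, counting program, annotation and strand setting: not given in the sources used here. Each unlogged log2 value minus a pseudocount of 1 followed the count, given a gene and a library factor, to within 0.05 on the log2 scale for at least 99.0% of 10453 genes per library.

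Groups and replicate numbers came from the sample titles. Counts were filtered with filterByExpr (11679 of 16876 genes kept), scaled by TMM and fitted by the quasi-likelihood test of edgeR 4.0.16 (R 4.3.3, treatment as the only term), with Benjamini-Hochberg adjustment over all genes and calls at 0.05. SE is the log2 fold change over the square root of F. Alternatives used DESeq2 1.42.0, limma 3.58.1, other scalings and filters, a replicate block and each library left out. The fits were tested on simulated data with less spread between libraries than these data, whose common biological coefficient of variation was 0.159. The simulation also had no library that stood apart, so it was an easier case. Total counts per library were 19166605 to 22553507, so depth limits mainly the members under about 4 CPM. Without molecular identifiers, counts do not equal independent molecules.

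The members and lists were chosen with earlier results of these data known. All members are accounted for, and the 2 largest called changes in each direction of each further list are named, except 1 gene that is not reported here. Synonyms and promoter windows came from RefSeq tables of build GRCr8.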

Additional observations from a re-analysis of the deposited data

How the results depend on the processing

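Of the 22 called members, 14 kept their call and direction in each of the up to 13 alternatives that tested them. The other 8 (Aldoa, Gapdh, Gpi, Hif1a, Ldhb, Pfkm, Pgam1 and Tpi1) lost the call in at least 1, mostly without IR-813 replicate 1 or 2, and kept their direction. Leaving out 1 library at a time gave 1339 to 3591 genes higher and 1473 to 3478 lower, 12 to 20 members higher and 2 to 5 lower, and 9 to 31 further pathway genes higher and 5 to 12 lower, the highest counts each without PSNPs replicate 3, and the cause was not tested. Scaling by library size only gave 5 members lower and 15 further pathway genes higher, and moved the median of all genes tested from −0.012 to −0.086. It gave 1943 genes higher and 2852 lower. The difference in Pfkfb4 to Pfkfb3 ran from −0.21 (without PSNPs replicate 3, reversed) to 0.50. Slc16a1, which was not called, reversed to −0.034 with library size only and to −0.11 without PSNPs replicate 1, with a range up to 0.19 (without PSNPs replicate 3). The replicate block gave 2035 genes higher and 2124 lower, and 17 members higher and 3 lower, with Aldoa and Tpi1 lost. Same-numbered libraries did not deviate together (correlations of −0.0058, 0.014 and 0.12), so the numbers were not taken to pair them. Members under about 4 CPM (Tpi1, Eno2, Ankrd37, Slc16a3) rest on few counts.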

Other observations

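Several genes of the same pathways were listed at 0 in every library, namely the glucose transporter gene Slc2a3, the testis-type gene Pgk2, Fbp1 of gluconeogenesis, the transketolase-like genes Tktl1 and Tktl2, the hypoxia factor gene Hif3a, Tmem45a and the erythropoietin gene Epo. Since the annotation and the handling of shared reads are not given, a 0 here does not show that a gene was not expressed.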
